A study of Mus musculus with 16 samples.

Results

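The genes described here are 7 genes tied to the aryl hydrocarbon receptor (AhR) other than the CYP1 enzymes and the AhR repressor. They were taken by symbol from the count tables of mouse dorsal skin, as 7 of 23238 symbols, and all 7 were listed. Aldh3a1, Tiparp, Ugt1a6a and Ugt1a6b are known AhR-responsive genes, whereas Arnt, Hsp90ab1 and Ptges3 encode proteins that work with the receptor. Of these genes, 6 passed the filter on low counts and were tested, and Ugt1a6a did not pass.

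The skin came from 16 male C57BL/6N mice (C57BL/6 in the labels) bought at 3 weeks of age and adapted for 1 week, with 4 mice in each of 4 groups and 1 library per mouse. The Cont group received normal chow. The LowAhR group received a low AhR ligand diet for 12 weeks with paper bedding free of AhR ligands. The LowAhR+AD group received the same diet and bedding, and 1% DNCB (2,4-dinitrochlorobenzene, a hapten that induces atopic dermatitis-like lesions) was applied to the dorsal skin 2 times per week for the last 10 weeks. The LowAhR+AD+BJ group received diet, bedding and DNCB and was given BJIKT (Bojungikgi-tang, a herbal decoction) by oral gavage at 1 g/kg per day. No group received DNCB on normal chow or BJIKT without DNCB, so DNCB was set apart only on the low ligand diet and BJIKT only on top of DNCB. DNCB was applied in acetone and olive oil, and BJIKT was given in water. The authors' methods do not state whether the other groups received these vehicles. Vehicle and gavage therefore cannot be told apart from DNCB and BJIKT. Diet and bedding always differed together. In LowAhR+AD against Cont, diet with bedding and DNCB differ together, and their parts cannot be told apart. The same holds for DNCB and BJIKT in LowAhR+AD+BJ against LowAhR.

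AhR is a ligand-activated transcription factor of the bHLH-PAS family. Without ligand it is held in the cytoplasm in a complex with HSP90 and co-chaperones such as p23, and with ligand it moves to the nucleus, pairs with ARNT and binds DNA at sites with the core GCGTG. In the skin it takes part in keratinocyte differentiation and barrier formation and in the response to pollutants, dietary indoles and tryptophan products.

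QuantSeq counts reads near the 3′ end of a transcript, so sequence shared at the 3′ end decides what a row of the table can tell apart. Per GENCODE for GRCm38, Ugt1a6b (chr1:88103252-88219003, plus strand) and Ugt1a6a (chr1:88134809-88218997, plus strand) belong to the UGT1A locus, in which each gene has its own first exon joined to common later exons. The last exons of the first listed transcripts of all 9 annotated UGT1A genes overlapped from chr1:88218127 to chr1:88218997, and 3 other exons (440 bases) had the same bounds in all 9. The annotated ends differed, since the last exon ended at position 88218997 in Ugt1a6b-201 and Ugt1a6a-201 but at 88220002 in Ugt1a7c-201. The last 30 bases of the first exon of Ugt1a6b, Ugt1a6a and Ugt1a1 (lower case) and the first 30 bases of exon 2 (capitals) are shown because they mark where the transcripts become the same.
Ugt1a6b: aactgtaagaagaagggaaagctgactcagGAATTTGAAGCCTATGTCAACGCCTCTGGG
Ugt1a6a: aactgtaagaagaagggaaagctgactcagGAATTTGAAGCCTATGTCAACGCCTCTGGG
Ugt1a1: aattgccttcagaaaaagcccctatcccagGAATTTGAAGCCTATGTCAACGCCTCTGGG
The capitals were identical in all 3 genes. From exon 2 onward the 3 transcripts were identical over 1311 bases. Over the first exon, Ugt1a6a was 95.1% identical to Ugt1a6b, and Ugt1a1 was 59.3% identical to it.

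The RefSeq promoter sequences of GRCm38.p6, which run from 250 bases before to 50 bases after a start site, held an entry for 4 of the 7 genes (Tiparp, Ugt1a6a, Arnt and Ptges3). The promoters of Tiparp, a classical AhR target, at chr3:65528197-65528496 (plus strand) and of Ptges3, the gene that rose with DNCB, at chr10:128058732-128059031 (plus strand) are shown with the AhR core GCGTG, or CACGC where it lies on the other strand, in capitals.
Tiparp: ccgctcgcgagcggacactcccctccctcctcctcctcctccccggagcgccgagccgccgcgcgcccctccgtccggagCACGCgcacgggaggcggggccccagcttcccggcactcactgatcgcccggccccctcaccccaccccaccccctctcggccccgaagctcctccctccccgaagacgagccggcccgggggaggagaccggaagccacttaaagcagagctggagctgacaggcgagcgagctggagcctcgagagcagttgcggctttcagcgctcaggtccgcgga
Ptges3: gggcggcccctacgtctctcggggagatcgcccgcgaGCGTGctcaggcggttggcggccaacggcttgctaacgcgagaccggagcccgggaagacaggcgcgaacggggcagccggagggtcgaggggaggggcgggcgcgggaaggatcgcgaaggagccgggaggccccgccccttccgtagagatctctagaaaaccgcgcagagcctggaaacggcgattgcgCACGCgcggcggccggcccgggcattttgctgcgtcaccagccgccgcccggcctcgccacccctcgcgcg
Tiparp held 1 match, Arnt 1, Ptges3 2 and Ugt1a6a 0. The core occurred in 32.4% of the 32851 promoters of the same length. A heat shock element, searched as GAANNTTC or TTCNNGAA, which read the same on both strands, was found in 0 of the 4 promoters and in 15.1% of all promoters.

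Library totals ranged from 7080508 to 13467477 counts and were 7080508 to 8773876 in the Cont and LowAhR groups and 10614393 to 13467477 in the DNCB groups. Levels are given in CPM (counts scaled to a common library size with TMM factors), and a count of 0 allowed a level of up to 0.229 to 0.406 CPM per library, counting error only. The replicate 1 library of the LowAhR+AD group stood apart, since 38.2% of the genes expected there at 20 to 40 counts were at 0, against at most 13.6% in the other libraries. Cell type markers also moved with the groups. The summed level of 6 keratinocyte markers was 4792 to 6352 CPM without DNCB and 5843 to 12926 CPM with it, and its members did not move together. In LowAhR+AD against LowAhR, Krt14 and Krt5 of the basal layer rose (log2 fold change 1.99 and 1.39, edgeR adjusted p = 0.000301 and 0.0148), while Krt10 of the suprabasal layers was at 1853 to 3000 CPM in LowAhR and 20.2 to 4019 CPM in LowAhR+AD (adjusted p = 0.507). Neither layer moved as a whole. Krt15, also basal, was at 525 to 1011 CPM in LowAhR and 318 to 629 CPM in LowAhR+AD. Krt1, also suprabasal, was at 254 to 674 CPM and 126 to 3493 CPM, and Trp63 at 23.2 to 32.7 CPM and 26.4 to 89.5 CPM. Of the 6 markers, 2 were called higher and 0 lower. The sum of 7 hair follicle markers was 7.69 to 7902 CPM without DNCB and 5345 to 19481 CPM with it, and 1 of the 7 was at 0 in all Cont libraries. The sum of 5 fibroblast markers was 23339 to 57700 CPM without DNCB and 3347 to 17819 CPM with it. The sum of 6 skeletal muscle markers was 4112 to 15930.5 CPM without DNCB and 314 to 7174 CPM with it, that of 5 sebaceous gland markers 2694 to 5705 CPM and 1087 to 2202 CPM, and that of 5 adipocyte markers 1512 to 4182 CPM and 185 to 1493 CPM. Of the sebaceous markers, Scd1, Scd3 and Awat2 fell in LowAhR+AD against LowAhR, while Elovl3 was at 108 to 277 CPM in LowAhR and 194 to 455 CPM in LowAhR+AD (edgeR adjusted p = 0.0936). Of the immune lists, the sum of 5 T cell markers was 17.96 to 39.7 CPM without DNCB and 2.87 to 19.7 CPM with it, that of 5 macrophage markers 217 to 607 CPM and 49.3 to 757 CPM, and that of 4 neutrophil markers 8.47 to 23.9 CPM and 17.4 to 78.9 CPM. The groups without DNCB also differed from each other. The adipocyte sum was 1512 to 2713 CPM in Cont and 3497 to 4182 CPM in LowAhR. The macrophage sum was 217 to 489 CPM in Cont and 519 to 607 CPM in LowAhR. The neutrophil sum was 8.47 to 12.0 CPM and 15.3 to 23.9 CPM. The other sums overlapped between Cont and LowAhR, with hair follicle medians of 215 CPM and 1770 CPM. In whole skin, fewer cells of a type and less RNA per cell cannot be told apart, and the part of cell composition in the results below was not tested.

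Among the AhR-responsive genes, Aldh3a1 was the gene that changed. It encodes a class 3 aldehyde dehydrogenase, which oxidizes reactive aldehydes in surface epithelia, and lies at chr11:61207537-61218421 on the plus strand. In the Cont group its level was 139.7 CPM, 138.2 CPM, 158.8 CPM and 136.9 CPM in replicates 1 to 4. In the LowAhR group it was 113.5 CPM, 101.3 CPM, 125.7 CPM and 78.0 CPM. All 4 LowAhR libraries were below all 4 Cont libraries.

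With DNCB, the level of Aldh3a1 was 14.3 CPM, 27.5 CPM, 43.1 CPM and 21.7 CPM in the LowAhR+AD group. In the LowAhR+AD+BJ group it was 18.9 CPM, 25.2 CPM, 100.4 CPM and 53.4 CPM. The 4 LowAhR+AD libraries were all below both groups without DNCB, whereas the BJIKT group spread from within the LowAhR+AD range up to the LowAhR range. The group means, in descending order, were 143 ± 10.4 CPM for Cont, 105 ± 20.4 CPM for LowAhR, 49.5 ± 37.1 CPM for LowAhR+AD+BJ and 26.6 ± 12.2 CPM for LowAhR+AD (SD, n = 4 each). The third and the fourth groups of this order overlapped, as did LowAhR and LowAhR+AD+BJ.

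Compared to the LowAhR group, Aldh3a1 fell 3.93-fold in the LowAhR+AD group (log2 fold change -1.97, SE 0.42), with an adjusted p of 0.00566 by edgeR's quasi-likelihood test. Compared to the Cont group it fell 5.38-fold (log2 fold change -2.43, SE 0.42, edgeR adjusted p = 0.000836). Both calls were made in all 8 fits that each left out 1 library, with log2 fold changes of -2.30 to -1.77 against LowAhR and -2.76 to -2.23 against Cont. The difference of LowAhR from Cont was smaller, at a log2 fold change of -0.45 (SE 0.40), and did not pass edgeR's test (adjusted p = 0.683). The exact permutation test of that difference, two-sided, gave p = 0.0286, the smallest that 4 against 4 libraries allow, unadjusted.

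The mean of Aldh3a1 in the LowAhR+AD+BJ group was above that of the LowAhR+AD group (log2 fold change 0.89, SE 0.41), but the call was not made (edgeR adjusted p = 0.514, exact permutation p = 0.343). Without replicate 3 of the BJIKT group, the library at 100.4 CPM, the log2 fold change was 0.28. Compared to the LowAhR group, Aldh3a1 in the BJIKT group had a log2 fold change of -1.08 (SE 0.41, edgeR adjusted p = 0.121). That comparison depended on the same library and on the test. It was called without replicate 3 of the BJIKT group (log2 fold change -1.69, adjusted p = 0.00796), by DESeq2 (adjusted p = 0.0489) and by limma voom (adjusted p = 0.045).

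**Figure D1:**
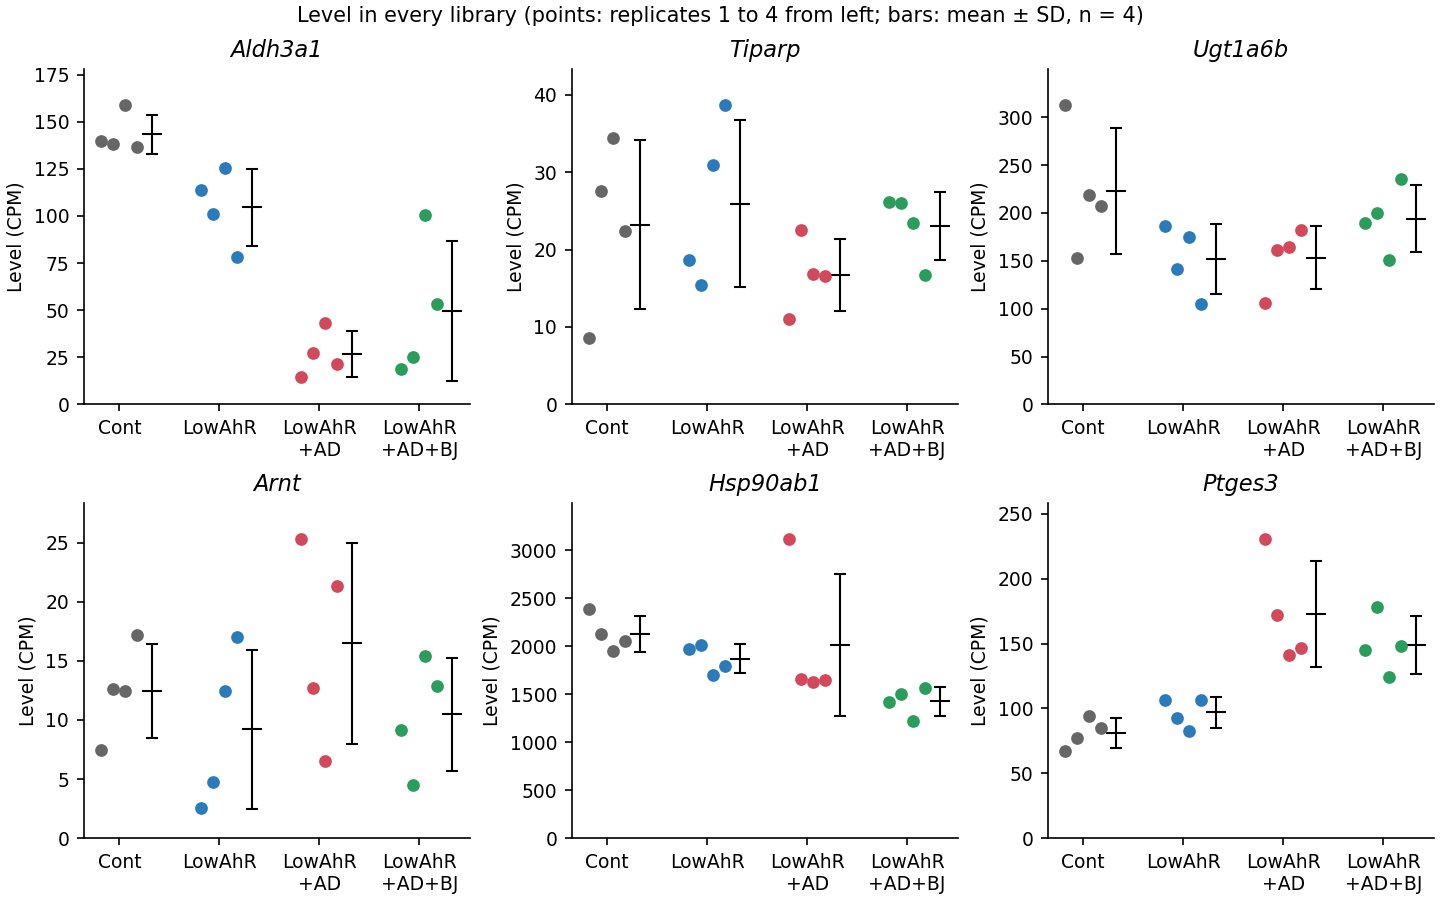
Level in CPM (linear axis from 0) of the 6 tested genes in every library, by group, with replicates 1 to 4 from left to right and a bar for the mean ± SD (n = 4). Aldh3a1 was at 14.3 to 43.1 CPM in the LowAhR+AD group and at 78.0 CPM or above without DNCB, and Ptges3 was at 124 CPM or above with DNCB and at 107 CPM or below without it.

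Tiparp encodes a mono-ADP-ribosyltransferase that is induced by AhR and in turn modifies and restrains it, and lies at chr3:65528410-65555518 on the plus strand. In the Cont group its level was 8.59 CPM, 27.5 CPM, 34.4 CPM and 22.4 CPM in replicates 1 to 4. In the LowAhR group it was 18.7 CPM, 15.5 CPM, 30.9 CPM and 38.6 CPM. These 2 groups overlapped over most of their range.

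With DNCB, Tiparp was at 11.1 CPM, 22.5 CPM, 16.9 CPM and 16.5 CPM in the LowAhR+AD group. The LowAhR+AD+BJ group was at 26.1 CPM, 25.9 CPM, 23.5 CPM and 16.7 CPM. Of the 4 BJIKT libraries, 3 were above all LowAhR+AD libraries. The log2 fold change of LowAhR+AD against LowAhR was -0.63 (SE 0.38, edgeR adjusted p = 0.290), and that of LowAhR+AD+BJ against LowAhR+AD was 0.46 (SE 0.38, edgeR adjusted p = 0.720, exact permutation p = 0.0857). Tiparp passed the test in 0 of the 5 comparisons, and its groups all overlapped with their neighbours in the order of means.

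Ugt1a6a and Ugt1a6b encode UDP-glucuronosyltransferases, which conjugate phenols and other small molecules for excretion. The row of Ugt1a6a was almost empty, with 5 counts in replicate 2 of the Cont group, 2 counts in replicate 3 of the LowAhR+AD group, 4 counts in replicate 4 of the LowAhR+AD+BJ group and 0 counts in the other 13 libraries. The row of Ugt1a6b held 98.6% to 100% of the counts of all UGT1A genes listed, in every library. The annotated transcripts overlap in their last exons but do not all end at the same base, so the Ugt1a6b row may hold reads of several UGT1A genes, and the share of each cannot be told from these counts.

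In the Cont group the Ugt1a6b row was at 313 CPM, 153 CPM, 219 CPM and 207 CPM. In the LowAhR group it was at 186 CPM, 141 CPM, 175 CPM and 105 CPM. The groups overlapped, with 2 LowAhR libraries below all Cont libraries, and the log2 fold change was -0.55 (SE 0.25, unadjusted p = 0.0397 and adjusted p = 0.332 by edgeR).

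With DNCB the Ugt1a6b row was at 105 CPM, 161 CPM, 164 CPM and 182 CPM in the LowAhR+AD group and at 190 CPM, 200 CPM, 151 CPM and 236 CPM in the LowAhR+AD+BJ group. LowAhR+AD against LowAhR gave a log2 fold change of 0.01 (SE 0.25), whose sign changed with the scaling. Compared to the Cont group, the LowAhR+AD group was at -0.54 (SE 0.25, edgeR adjusted p = 0.133). In the BJIKT group, 3 of the 4 libraries were above all LowAhR+AD libraries, with a log2 fold change of 0.34 (SE 0.25, edgeR adjusted p = 0.674). The sum of all UGT1A rows, an alternative chosen after the values were seen, gave log2 fold changes of -0.55, 0.01, -0.54 and 0.34 in these 4 comparisons, and no call was made.

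Among the partners of the receptor, Arnt was low in counts and variable. It encodes the bHLH-PAS protein with which AhR binds DNA and lies at chr3:95434388-95497240 on the plus strand. Its level was 7.44 CPM, 12.7 CPM, 12.5 CPM and 17.2 CPM in the Cont group and 2.57 CPM, 4.73 CPM, 12.5 CPM and 17.1 CPM in the LowAhR group. Arnt was at 25.3 CPM, 12.7 CPM, 6.52 CPM and 21.3 CPM in the LowAhR+AD group and at 9.12 CPM, 4.48 CPM, 15.4 CPM and 12.9 CPM in the LowAhR+AD+BJ group. All groups overlapped, and Arnt passed the test in 0 of the 5 comparisons. The log2 fold changes of Arnt ranged from -0.65 in LowAhR+AD+BJ against LowAhR+AD to 0.84 in LowAhR+AD against LowAhR, each with a standard error of 0.55, so that differences of this size were not detectable at this depth and spread.

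Hsp90ab1 encodes the constitutive cytosolic HSP90 that holds AhR in its ligand-binding form and lies at chr17:45567775-45573271 on the minus strand. In the Cont group its level was 2388 CPM, 2126 CPM, 1946 CPM and 2057 CPM. In the LowAhR group it was 1970 CPM, 2014 CPM, 1696 CPM and 1797 CPM. In the LowAhR+AD group it was 3117 CPM, 1656 CPM, 1627 CPM and 1649 CPM. Replicate 1 of that group was the highest library, and the other three lay within a narrow range below all LowAhR libraries.

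With BJIKT, Hsp90ab1 was at 1420 CPM, 1500 CPM, 1221 CPM and 1569 CPM. These 4 libraries were below all libraries of the LowAhR and LowAhR+AD groups. Compared to the LowAhR+AD group the log2 fold change was -0.50 (SE 0.24), with an adjusted p of 0.527 by edgeR and an exact permutation p of 0.0286. Without replicate 1 of the LowAhR+AD group it was -0.21. Compared to the LowAhR group the log2 fold change was -0.39 (SE 0.24, edgeR adjusted p = 0.364, exact permutation p = 0.0286). LowAhR+AD against LowAhR gave 0.11 (SE 0.24), and -0.19 without replicate 1 of the LowAhR+AD group. Both exact permutation p-values of 0.0286 are unadjusted and the smallest that 4 against 4 libraries allow. They restate that the groups did not overlap, which held for 5.08% of all genes against LowAhR+AD and 17.1% against LowAhR.

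Ptges3 was the partner that changed. It encodes p23, a co-chaperone that stabilizes the closed form of HSP90 and also has prostaglandin E synthase activity, and lies at chr10:128058954-128077272 on the plus strand. RefSeq lists a pseudogene of Ptges3, with which reads could be shared. In the Cont group its level was 67.5 CPM, 77.5 CPM, 94.3 CPM and 85.2 CPM. In the LowAhR group it was 107 CPM, 92.3 CPM, 82.6 CPM and 106 CPM. The groups on the 2 diets overlapped.

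With DNCB, Ptges3 was at 231 CPM, 172 CPM, 141 CPM and 147 CPM in the LowAhR+AD group. It was at 145 CPM, 178 CPM, 124 CPM and 148 CPM in the LowAhR+AD+BJ group. All 8 libraries with DNCB were above all 8 without it. The group means, in descending order, were 173 ± 40.9 CPM for LowAhR+AD, 149 ± 22.3 CPM for LowAhR+AD+BJ, 97.0 ± 11.7 CPM for LowAhR and 81.1 ± 11.4 CPM for Cont (SD, n = 4 each). The neighbours within the DNCB pair and within the pair without DNCB overlapped.

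Compared to the LowAhR group, Ptges3 rose 1.78-fold in the LowAhR+AD group (log2 fold change 0.83, SE 0.20, edgeR adjusted p = 0.0109). Compared to the Cont group it rose 2.13-fold (log2 fold change 1.09, SE 0.20, edgeR adjusted p = 0.00108). Both calls were made in all 8 fits that each left out 1 library, and without replicate 1 of the LowAhR+AD group the log2 fold changes were 0.66 and 0.91. The first call was not made when only the 8 libraries of those groups were fitted (adjusted p = 0.0619). LowAhR against Cont gave a log2 fold change of 0.26 (SE 0.20, edgeR adjusted p = 0.624), and LowAhR+AD+BJ against LowAhR+AD gave -0.22 (SE 0.20, edgeR adjusted p = 0.756). LowAhR+AD+BJ against LowAhR gave 0.62 (SE 0.20), with an adjusted p of 0.0667 by edgeR, 0.0407 by DESeq2 and 0.0417 by edgeR without replicate 3 of the BJIKT group.

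The ratio of Ptges3 to Hsp90ab1 within a library does not depend on the scaling, and was added after the values were seen. Per 100 Hsp90ab1 counts there were 2.83, 3.64, 4.85 and 4.14 Ptges3 counts in the Cont libraries and 5.41, 4.59, 4.87 and 5.93 in the LowAhR libraries. With DNCB there were 7.40, 10.4, 8.69 and 8.90 Ptges3 counts in the LowAhR+AD libraries and 10.2, 11.9, 10.2 and 9.45 in the LowAhR+AD+BJ libraries. All libraries with DNCB were above all those without it. The log2 ratio was higher by 0.76 in LowAhR+AD than in LowAhR and by 1.01 in LowAhR+AD+BJ than in LowAhR (exact permutation test, two-sided, unadjusted p = 0.0286 for each), and by 0.24 in LowAhR+AD+BJ than in LowAhR+AD (exact permutation p = 0.114). It was higher by 0.45 in LowAhR than in Cont (exact permutation p = 0.0571), with 3 LowAhR libraries above all Cont libraries. Ptges3 alone already separated LowAhR from both DNCB groups before the ratio was formed, so the p-values of 0.0286 are no further support. In LowAhR+AD+BJ against LowAhR the ratio joins a higher Ptges3 with a lower Hsp90ab1. The p-values of the ratio are not adjusted over its 5 comparisons. Unlike its level, the ratio of replicate 1 of the LowAhR+AD group was the lowest of its group.

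**Figure D2:**
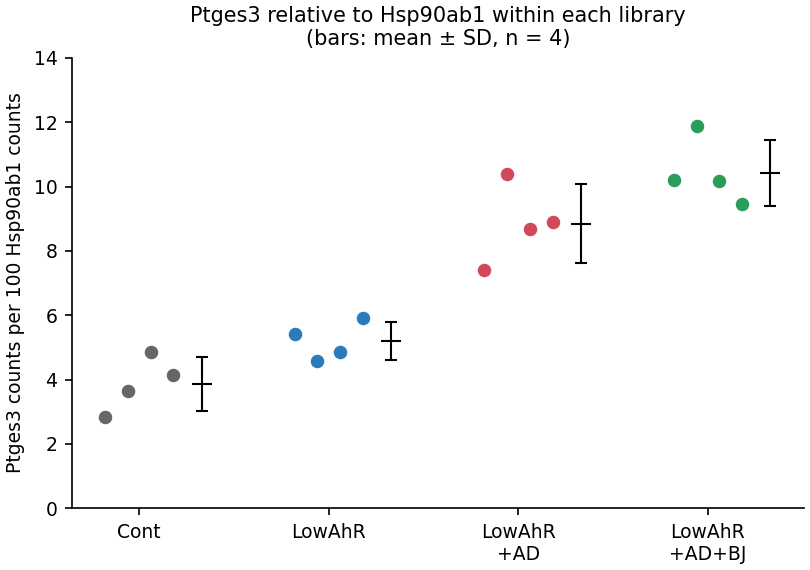
Ptges3 counts per 100 Hsp90ab1 counts (linear axis from 0) in every library by group, with a bar for the mean ± SD (n = 4). The 8 libraries with DNCB lie at 7.40 to 11.9 and the 8 without it at 2.83 to 5.93.

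Across the 6 tested genes, 0 were called in LowAhR against Cont, where 0% of the 14854 genes tested were called, 2031 (13.7%) had an unadjusted p under 0.05, DESeq2 called 491 and limma voom 0. Of the 6, 1 (Ugt1a6b) had an unadjusted p under 0.05, and DESeq2 and limma voom called 0. In LowAhR+AD against LowAhR, 2 of the 6 were called, 1 higher and 1 lower, beside 12.6% of all genes (6.42% higher and 6.21% lower). In LowAhR+AD against Cont the same 2 genes, Ptges3 and Aldh3a1, were called, beside 21.8% of all genes (12.3% higher and 9.47% lower). In LowAhR+AD+BJ against LowAhR+AD, 0 of the 6 were called by edgeR, beside 0% of all genes. In that comparison 1405 genes (9.46%) had an unadjusted p under 0.05, 1 of the 6 among them (Aldh3a1), and DESeq2 called 17 genes and limma voom 0, none of them a member. In LowAhR+AD+BJ against LowAhR, 0 of the 6 were called by edgeR, 2 by DESeq2 and 1 by limma voom, and 2 had an unadjusted p under 0.05. edgeR called 6.77% of all genes there, DESeq2 called 1676 and limma voom 1005, and 22.2% had an unadjusted p under 0.05 by edgeR. Groups did not overlap for 1, 2, 2, 1 and 2 of the 6 genes in these comparisons in the same order, beside 11.3%, 18.8%, 24.7%, 5.08% and 17.1% of all genes. LowAhR+AD is part of 3 of the comparisons and LowAhR of 3, so their values are not independent of each other.

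**Figure D3:**
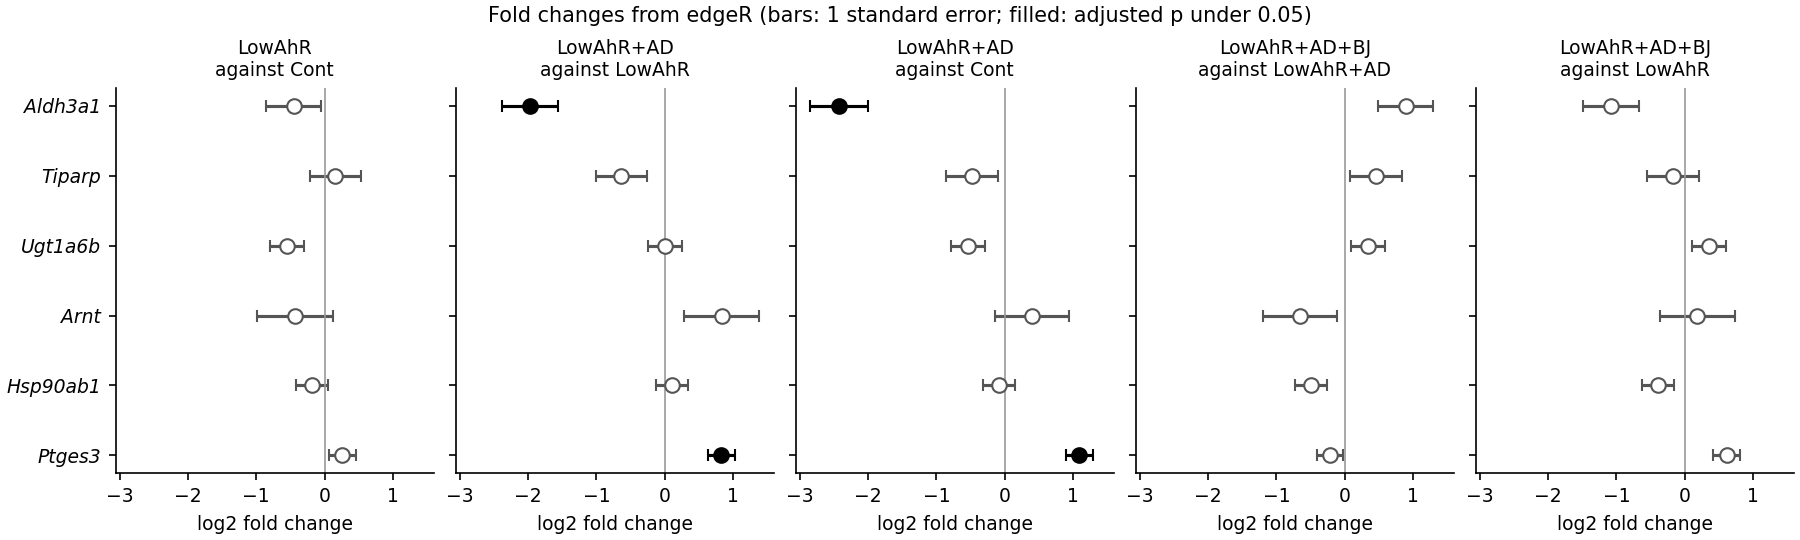
log2 fold change of the 6 tested genes in the 5 comparisons (edgeR, bars 1 standard error, filled points adjusted p under 0.05, ordered by gene from top to bottom). Filled points are Aldh3a1 at -1.97 and -2.43 and Ptges3 at 0.83 and 1.09 in the comparisons of LowAhR+AD with LowAhR and with Cont.

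The other genes of the AhR pathway were taken from lists. Of the receptor, its repressor and the CYP1 enzymes, 4 of 5 were tested, since Cyp1a2 was at 0 counts, and 2 of the 4 fell in LowAhR+AD against Cont, beside 9.47% of all genes that fell. Ahr was at 41.4 to 51.7 CPM in Cont and 4.42 to 19.8 CPM in LowAhR+AD (log2 fold change -1.73, edgeR adjusted p = 0.00356), and was at 11.8 to 30.9 CPM in LowAhR+AD+BJ. In LowAhR, Ahr was at 20.9 to 32.2 CPM, below all Cont libraries (log2 fold change -0.75, edgeR adjusted p = 0.383). Groups did not overlap for 2 of the 4 genes in LowAhR against Cont (Ahr and Cyp1a1, both lower), beside 11.3% of all genes. Ahrr, the repressor, was at 9.75 to 16.9 CPM in Cont and 0 to 3.81 CPM in LowAhR+AD (log2 fold change -3.17, edgeR adjusted p = 0.0217), a call not made without replicate 2 or replicate 4 of the LowAhR+AD group (adjusted p = 0.056 and 0.060). edgeR and limma voom called 0 of the 4 in the other 4 comparisons. Both called 0 of all 14854 genes in LowAhR against Cont and in LowAhR+AD+BJ against LowAhR+AD. They called 1876 and 2092 genes in LowAhR+AD against LowAhR, and 1005 each in LowAhR+AD+BJ against LowAhR. DESeq2 called 1 of the 4 (lower, in LowAhR+AD against LowAhR), beside 2673 of 14830 genes in either direction (1318 higher). An unadjusted p under 0.05 was reached by 1 of the 4 in LowAhR against Cont and 2 in LowAhR+AD against LowAhR, beside 2031 and 4170 of 14854 genes. In LowAhR+AD+BJ it was reached by 0 against LowAhR+AD and 2 against LowAhR, beside 1405 and 3291 genes. Of 7 other AhR-responsive genes tested, Ereg, which encodes the growth factor epiregulin, fell in LowAhR+AD against Cont (log2 fold change -2.12, edgeR adjusted p = 0.00271), and 0 rose. This was 1 of 7 lower by edgeR, beside the same 9.47% of all genes, while 12.3% of all genes rose. DESeq2 and limma voom each called 2 of the 7 lower against Cont. In either direction DESeq2 called 3886 of 14830 genes (2116 higher) and limma voom 3206 of 14854 (1513 higher). The fall of Ereg against LowAhR (log2 fold change -1.55, edgeR adjusted p = 0.0261) was called in 3 of 8 fits that each left out 1 library, and not without replicate 1 or 2 of LowAhR or replicate 1, 2 or 4 of LowAhR+AD (adjusted p up to 0.101). In that comparison DESeq2 and limma voom each called 2 of the 7 lower. Over all genes in either direction, DESeq2 called 2673 of 14830 (1318 higher) and limma voom 2092 of 14854 (914 higher).

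Of the 13 other chaperone genes, which encode further HSP90 isoforms, co-chaperones, the HSP70 machinery and the heat shock factor Hsf1, 6 rose and 0 fell in LowAhR+AD against LowAhR, beside 6.42% of all genes that rose. The median log2 fold change of the 13 was 0.63, against 0.04 over all genes tested. Hsp90aa1, the inducible cytosolic HSP90, was at 285 to 345 CPM in LowAhR and 551 to 766 CPM in LowAhR+AD (log2 fold change 1.11, edgeR adjusted p = 0.00644). Fkbp4, an immunophilin of steroid receptor complexes, was at 74.4 to 130 CPM in LowAhR and 176 to 221 CPM in LowAhR+AD (log2 fold change 1.00, edgeR adjusted p = 0.00657). Ahsa1, which stimulates the ATPase of HSP90, rose by 0.75 on the log2 scale (edgeR adjusted p = 0.0118). These 3 calls were made in all 8 fits that each left out 1 library.

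Stip1, which links HSP70 and HSP90, rose by 1.15 on the log2 scale (edgeR adjusted p = 0.0165), Hspa4 by 0.75 (adjusted p = 0.0211) and Dnajb1 by 0.72 (adjusted p = 0.0325). The call of Stip1 was not made without replicate 1 or replicate 2 of the LowAhR group (adjusted p = 0.0581 and 0.053). The call of Hspa4 was not made without replicate 1 or 2 of LowAhR or replicate 2 or 4 of LowAhR+AD (adjusted p up to 0.0728). That of Dnajb1 was not made without replicate 1, 2 or 3 of LowAhR or replicate 1 or 4 of LowAhR+AD (adjusted p up to 0.107). Ahsa1, Hspa4 and Dnajb1 were also not called when only the 8 libraries of those groups were fitted (adjusted p = 0.0681, 0.097 and 0.105). Without replicate 1 of the LowAhR+AD group, 6 of the 13 were called higher, beside 802 of 15028 genes, and Dnajb1 was not among the 6.

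Compared to the Cont group, 7 of the 13 chaperone genes rose in LowAhR+AD (12.3% of all genes rose), with a median log2 fold change of 0.73. Of these, Ahsa1 (log2 fold change 0.62, edgeR adjusted p = 0.0201) was not called without replicate 2 or 3 of Cont or replicate 2 of LowAhR+AD (adjusted p up to 0.0674) or with only the 8 libraries of those groups fitted (adjusted p = 0.0542). Dnajb1 (log2 fold change 0.73, edgeR adjusted p = 0.0200) was not called without replicate 1 or 3 of Cont or replicate 4 of LowAhR+AD (adjusted p up to 0.0660) or with only those 8 libraries (adjusted p = 0.0604). In LowAhR+AD+BJ against LowAhR+AD, 0 of the 13 were called by edgeR, DESeq2 or limma voom, and the median was -0.10. Over all genes there, edgeR and limma voom each called 0 of 14854 and DESeq2 called 17 of 14830. An unadjusted p under 0.05 was reached by 2 of the 13, beside 9.46% of all genes. Fkbp4, Stip1 and Ahsa1 had all 4 BJIKT libraries below all LowAhR+AD libraries, beside 2.65% of all genes, with log2 fold changes of -0.48, -0.60 and -0.42 (edgeR adjusted p = 0.511, 0.527 and 0.507). In LowAhR+AD+BJ against LowAhR, 1 of the 13 was called, Hsp90aa1 (log2 fold change 1.08, edgeR adjusted p = 0.0123), beside 6.77% of all genes. DESeq2 called 4 of the 13, beside 1676 of 14830 genes, and limma voom 3, beside 1005 of 14854 genes. Without replicate 2 of the BJIKT group the call of Hsp90aa1 was not made (adjusted p = 0.0562).

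**Figure D4:**
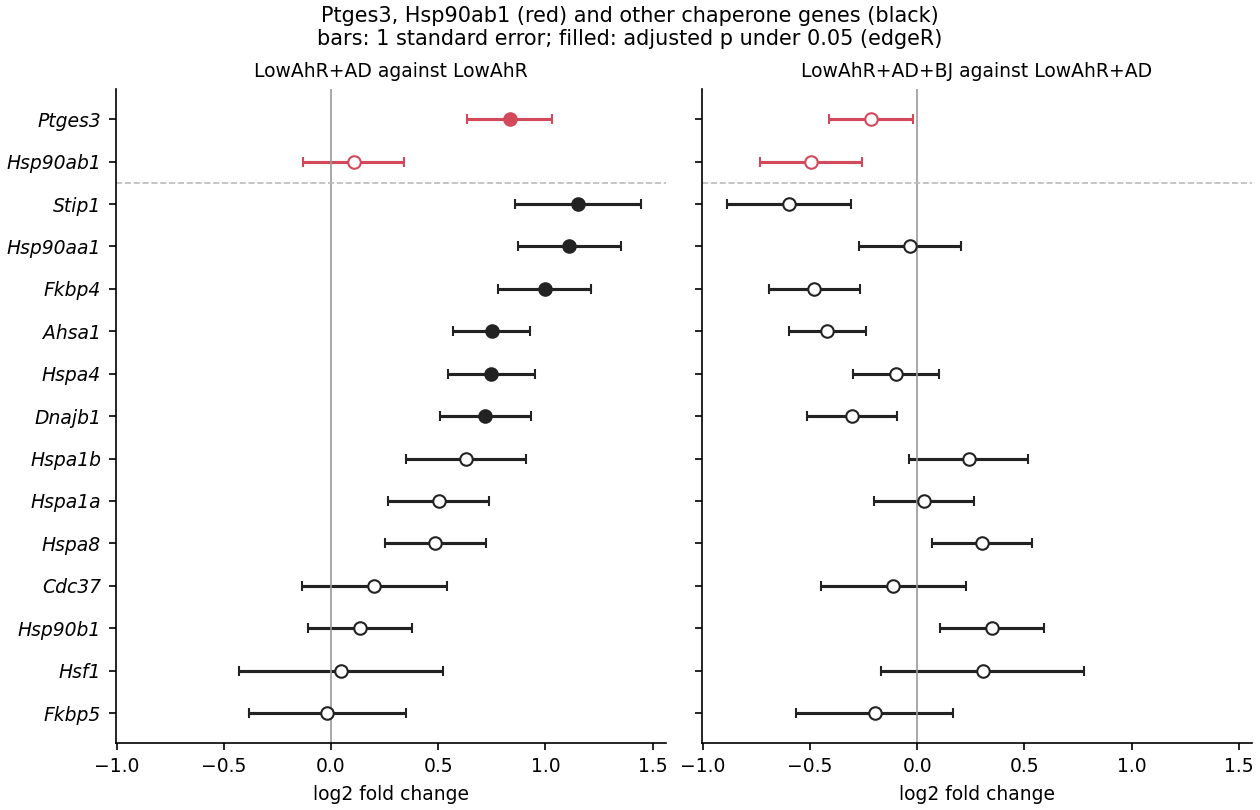
log2 fold change (edgeR, bars 1 standard error, filled points adjusted p under 0.05) of Ptges3 and Hsp90ab1 (red) and of 13 other chaperone genes (black) in LowAhR+AD against LowAhR and in LowAhR+AD+BJ against LowAhR+AD. Ptges3 and 6 of the 13 are filled on the left, where edgeR called 12.6% of all genes. On the right 0 are filled, where edgeR called 0% of all genes.

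Of the relatives of Arnt, 7 of 10 bHLH-PAS genes were tested. Hif1a, the hypoxia-inducible factor that also pairs with ARNT, was at 41.7 to 58.5 CPM in LowAhR and 85.5 to 160 CPM in LowAhR+AD. It rose (log2 fold change 1.26, edgeR adjusted p = 0.00932), and the call was made in all 8 fits that each left out 1 library. Arntl, which encodes the clock factor BMAL1, fell (log2 fold change -2.28, edgeR adjusted p = 0.0290), a call not made without replicate 1, 2 or 4 of LowAhR or replicate 4 of LowAhR+AD (adjusted p up to 0.0747) or with only the 8 libraries fitted (adjusted p = 0.106). These were 1 of 7 higher and 1 of 7 lower, beside 6.42% and 6.21% of all genes. Against Cont, Hif1a rose (log2 fold change 1.89, edgeR adjusted p = 0.000402) and Arntl and Clock, its partner in the circadian clock, fell (log2 fold change -2.78 and -0.95, edgeR adjusted p = 0.00662 and 0.00953). That was 1 of 7 higher, beside 12.3% of all genes, and 2 of 7 lower, beside 9.47%. In LowAhR+AD+BJ, Hif1a was at 72.1 to 144 CPM. Against LowAhR it was called higher, as 1 of 7, beside 541 of 14854 genes called higher, and 0 of 7 were lower. That call was made in 5 of 8 fits that each left out 1 library. Against LowAhR+AD, 0 of the 7 were called, beside 0% of all genes. The ALDH3 relatives of Aldh3a1 gave 0 calls among 4 tested in LowAhR+AD against LowAhR by edgeR, DESeq2 or limma voom, with 0 of the 4 at an unadjusted p under 0.05. Over all genes there, edgeR called 12.6%, DESeq2 2673 of 14830 and limma voom 2092 of 14854. An unadjusted p under 0.05 by edgeR was reached by 4170 of 14854 genes. Against Cont 1 of the 4 rose, Aldh3b3 (beside 12.3% of all genes that rose), which was at 0 to 0.863 CPM in Cont, 1.62 to 6.56 CPM in LowAhR, 0.321 to 11.9 CPM in LowAhR+AD and 2.82 to 7.94 CPM in LowAhR+AD+BJ. Its log2 fold change of 4.74 (edgeR adjusted p = 0.00711) was taken against a group near 0 and limma voom did not call it (adjusted p = 0.0698), while it was called in all 8 fits that each left out 1 library. In LowAhR against Cont edgeR and limma voom called 0 of the 4, each beside 0 of 14854 genes. DESeq2 called 1 of the 4 higher, beside 357 of 14830 genes that it called higher. Of 7 relatives of Tiparp among the ADP-ribosyltransferases, 1 fell in LowAhR+AD against LowAhR, Parp9 (log2 fold change -1.53, edgeR adjusted p = 0.0102), beside 6.21% of all genes that fell. Against Cont 1 of the 7 fell, Parp14 (log2 fold change -1.06, edgeR adjusted p = 0.0249), beside 9.47% of all genes that fell. The call of Parp14 was not made without replicate 2 or 4 of Cont or replicate 2 of LowAhR+AD (adjusted p up to 0.0696). None of the 6 other UGT1A genes listed passed the filter on low counts.

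The genes with the pattern most like each member were ranked by Pearson's r of log2 CPM over the 16 libraries, given as a description, since libraries of a group share treatment. For Aldh3a1 they were Flg2 (0.97), Itm2b (0.96) and Adh1 (0.96), and for Ptges3 they were Tuba1c (0.95), Arl15 (0.95) and Actg1 (0.94). For Hsp90ab1 they were Ctcf (0.95), Rbm25 (0.92) and Baz1b (0.91). The highest r was lower for Arnt (Rbfox2, 0.86), Tiparp (Fam220a, 0.85) and Ugt1a6b (Rdh13, 0.84). The choice depended on the measure, since the 3 genes highest by Spearman's rho shared 0 with these 3 for Aldh3a1, Ptges3, Ugt1a6b and Arnt and 1 for Tiparp and Hsp90ab1. Between the members themselves, r was -0.91 for Aldh3a1 and Ptges3 and between -0.48 and 0.28 for the other pairs, with the group and the depth of a library shared by both points of a pair.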

How the data were processed

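Total RNA from dorsal skin was made into QuantSeq 3′ libraries (75-base single-end reads, NextSeq instrument). The authors deposited raw read counts per gene symbol for each library. The submitters' processing notes name Bowtie2, bedtools and mm10, without versions or roles. The counting rule and the treatment of reads that map to several places are not given in the sources used here. Each table had 23282 rows, and repeated symbols were kept as separate rows.

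Counts were tested with edgeR 4.0.16 in R 4.3.3 (quasi-likelihood test, TMM factors, all 16 libraries in one model of 4 groups), on the 14854 rows that edgeR's filterByExpr kept (minimum count 10, minimum total 15). The threshold was 0.05 for p-values adjusted by Benjamini and Hochberg's method across these rows. The SE given with an edgeR log2 fold change was its absolute value divided by the square root of the test's F statistic. log2 CPM used a prior count of 2, and single values were compared by exact permutation tests. The script was tested on simulated data. DESeq2 1.42.0 and limma 3.58.1 (voom), other scalings, filters, library sets and a replicate block were tried as alternatives. Totals of 7080508 to 13467477 counts set the precision. Replicates of a group differed by more than sampling noise (chi-square per degree of freedom 16.4 to 285), and p-values measure the spread between mice of 1 experiment. Positions came from GENCODE for GRCm38 and sequences from GENCODE transcripts and RefSeq.

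The members and the gene lists were chosen with earlier results of these data known. Named were all 7 members, at most 6 genes of each pathway list (those called in the most comparisons), and by rule the 3 tested genes with the highest Pearson's r to a member. Correlations and counts over lists are descriptions. 1 gene of the chaperone list is not reported here and was left out of its counts.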

Additional observations from a re-analysis of the deposited data

Results flagged for a closer look

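Among 155 pairs of gene and group, 17 had 1 library far from the other 3, by Dixon's critical value for groups of 4 at the 95% level. Chance gives this in about 1 in 20 groups of 4 if the values are normally distributed. The measure was taken on CPM without a log, and all 17 values were the highest of their group. The number flagged therefore cannot be set against that rate.

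Of the members, Hsp90ab1 was at 3117 CPM in replicate 1 of the LowAhR+AD group, against 1627 to 1656 CPM in the others, and this library also stood apart in its share of genes at 0. Aldh3a1 was at 158.8 CPM in replicate 3 of the Cont group, against 137 to 140 CPM. Ugt1a6a was at 0.646 CPM in replicate 2 of Cont, 0.155 CPM in replicate 3 of LowAhR+AD and 0.403 CPM in replicate 4 of LowAhR+AD+BJ, with 0 in the other libraries of each group. With 3 libraries at 0 any count above 0 is picked out by this measure, so these 3 values (2 to 5 counts) carry no information on the spread.

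In the Cont group, Cyp1b1 was at 82.2 CPM and Aldh3b3 at 0.863 CPM in replicate 3, and Cyp1a1 was at 23.4 CPM and Parp9 at 22.7 CPM in replicate 2. In the LowAhR group, Ahrr was at 19.95 CPM in replicate 2, against 2.86 to 4.65 CPM in the others, and in replicate 3 Ahsa1 was at 131 CPM and Aldh3b1 at 14.8 CPM. In the LowAhR+AD group, Nfe2l2 was at 149 CPM in replicate 2 and Npas2 at 3.57 CPM in replicate 3. In the LowAhR+AD+BJ group, Dnajb1 was at 80.2 CPM and Aldh3b1 at 12.1 CPM in replicate 4, and Parp14 was at 22.8 CPM in replicate 3.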

How the results depend on the processing

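The falls of Aldh3a1 in LowAhR+AD against LowAhR and against Cont and the rise of Ptges3 against Cont were called under every alternative run, and the rise of Ptges3 against LowAhR under all but the fit of those 8 libraries alone. In LowAhR against Cont, where 0 genes were called, DESeq2 called 491, a filter of at least 10 counts in every library 35 and the fit of the 8 libraries alone 250, and fits without 1 library called 0 to 159. In LowAhR+AD against LowAhR the fit of the 8 libraries called 765 genes and 1 member, and fits without 1 library called 1128 to 2015 genes. In LowAhR+AD+BJ against LowAhR+AD, DESeq2 called 17 genes and fits without 1 library 0 to 1. In LowAhR+AD+BJ against LowAhR, DESeq2 called 1676 genes and 2 members, limma voom 1 member, the replicate block 1 member, Aldh3a1 (adjusted p = 0.0392), and fits without 1 library 414 to 1469 genes and 0 to 2 members. The causes were not tested. Replicate numbers did not pair the libraries, since only 3 of 20 pairs correlated above 0.1 (range -0.055 to 0.167), 5 correlated best with their own number, and the block changed no other call of a member. Signs turned only among uncalled values. Ugt1a6b in LowAhR+AD against LowAhR was -0.010 with RLE factors, -0.041 with upper-quartile factors, -0.010 with DESeq2, -0.011 with the strict filter and -0.127 to 0.149 without 1 library. Without 1 library, Tiparp was at -0.123 to 0.406 in LowAhR against Cont and -0.351 to 0.090 in LowAhR+AD+BJ against LowAhR, Arnt at -0.124 to 0.669 in the latter, and Hsp90ab1 at -0.189 to 0.196 in LowAhR+AD against LowAhR and -0.385 to 0.010 against Cont. Arnt had 19 to 332 counts per library and Ugt1a6a 0 to 5, and counting error was not separated from the spread between mice.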
